A study of Mus musculus with 44 samples.

Results

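The genes described here encode the subunits of the proteasome and the proteins that assemble or activate it. Probe sets were taken where the platform's table gave 1 gene symbol that began with Psma, Psmb, Psmc, Psmd or Psme, with Psmb8 and Psmb9 left out. This found 51 probe sets of 40 genes, out of 12422 probe sets with 8251 singly named genes in all. Of these, 44 probe sets of 36 genes were bright enough to be tested. The prefixes also caught 2 genes that are not subunits. Psmc3ip acts in meiotic recombination and Psme3ip1 is a partner of the activator Psme3. Without them the set held 49 probe sets of 38 genes, of which 43 probe sets of 35 genes were tested. Psme2 was not a member, because its probe sets carry several symbols.

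RNA came from bone marrow of 22 BXD mouse strains, sorted for lineage-negative cells that carry Sca-1 and c-kit, a population enriched in blood-forming stem and progenitor cells. BXD strains are inbred lines, each homozygous for its own mixture of the C57BL/6 and DBA/2 genomes. All mice were females of 3 to 6 months, each sample pooled the marrow of 3 mice, and each strain had 2 Affymetrix MG_U74Av2 arrays. Array series B held strains BXD1, BXD2, BXD5, BXD9, BXD14, BXD16, BXD18, BXD19, BXD21, BXD28, BXD34 and BXD39 on 24 arrays. Array series A held BXD6, BXD8, BXD11, BXD12, BXD31, BXD32, BXD33, BXD38, BXD40 and BXD42 on 20 arrays. No strain had arrays in both series, so strains were compared only within their series. The labels name no treatment. The sort took the 5% of cells with the least lineage stain and yielded 16000 to 118000 cells per sample, so later progenitors can be among them. Nothing in the labels says which pool each array came from, so p-values rest on array-to-array spread that may be technical.

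The proteasome degrades proteins marked with ubiquitin. Its core particle (20S) is a barrel of alpha and beta rings, whose beta subunits Psmb5, Psmb6 and Psmb7 carry the cutting activities. The regulatory particle (19S) caps the barrel: a base of ATPases (Psmc genes) unfolds the substrate, and a lid (most Psmd genes) removes its ubiquitin. In immune cells and after interferon, Psmb8, Psmb9 and Psmb10 take the places of Psmb5, Psmb6 and Psmb7, and Psme1 with Psme2 forms an alternative cap. Nfe2l1 is known to raise transcription of subunit genes together when proteasomes are inhibited, through antioxidant response elements in their promoters.

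Levels are log2 of quantile-normalized intensities with a floor of 4, and each gene is represented by its brightest tested probe set unless a probe set is named. Kit, the receptor used in the sort, lay between 8.13 and 10.22 on the 44 arrays, and the stem and progenitor genes Cd34, Flt3, Gata2, Meis1 and Procr were bright on all of them. Of 7 listed sort and stem cell markers on the array, 6 were bright enough to be tested. Genes of other blood lineages were bright too. Camp, of neutrophil granules, lay between 10.06 and 12.61, the immunoglobulin gene Ighm between 9.35 and 12.49, and the globin gene Hba-a1 between 7.07 and 11.70. By list, 10 of 12 neutrophil and monocyte, 7 of 7 B cell and 5 of 7 erythroid markers on the array were tested. Over the 209 probe sets past the strain effect described next, the 2 arrays of a strain had r between 0.55 and 0.90 in 20 strains. These probe sets were chosen where arrays of a strain agreed, so a high r is partly built in and does not measure array quality. The arrays labelled BXD40 had r = -0.04 and those labelled BXD42 r = 0.05, while the first BXD40 array had r = 0.65 with the second BXD42 array and the second BXD40 array r = 0.50 with the first BXD42 array. The labels were kept, and the main results are given with and without these strains.

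Most proteasome genes differed little between strains relative to the spread between arrays of a strain, and 1 passed the strain effect. Psmb6, the beta-ring subunit with caspase-like activity, was the only 1 of the 44 tested probe sets that passed the strain effect (limma F test within array series, Benjamini-Hochberg adjusted p = 0.00097). Over all probe sets 209 of 7453, or 2.80%, passed. Without BXD40 and BXD42 Psmb6 was again the single member to pass (adjusted p = 0.00145). At an unadjusted p under 0.05 there were 5 member probe sets of 44 (11.4%), against 11.9% of all probe sets. These were Psmb6, Psmb10 (limma adjusted p = 0.354), Psmc3 by probe set 93734_i_at (limma adjusted p = 0.284), Psmd9 (limma adjusted p = 0.415) and Psme3 (limma adjusted p = 0.284). The share of members below the threshold was thus near the background.

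Psmb6 was low on both arrays of 4 strains. BXD33 had 5.05 and 5.05, BXD2 had 5.07 and 5.14, BXD28 had 5.16 and 5.15, and BXD21 had 5.33 and 5.01. On both arrays of 14 other strains it lay at 6.70 or above, up to 8.71, though the arrays of BXD9 (8.42 and 6.71) and BXD18 (8.71 and 7.02) lay far apart. The remaining 4 strains also had arrays that differed by over 1 unit: 6.10 and 4.97 in BXD34, 7.03 and 5.07 in BXD19, 5.45 and 6.66 in BXD16, and 5.79 and 7.33 in BXD6. Of these, BXD19 alone had 1 array in each range. As the samples are pools of cells, fewer cells with Psmb6 RNA and less of it per cell cannot be told apart. In the authors' deposited intensities the BXD33 arrays had 32.4 and 31.5, while the highest array, of BXD18, had 408.5. On the arrays of the 4 low strains, 26% to 30.2% of all probe sets lay below Psmb6. No detection calls were among the files used here, so a low level may be background and the differences below may understate the true ones.

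**Figure D1:**
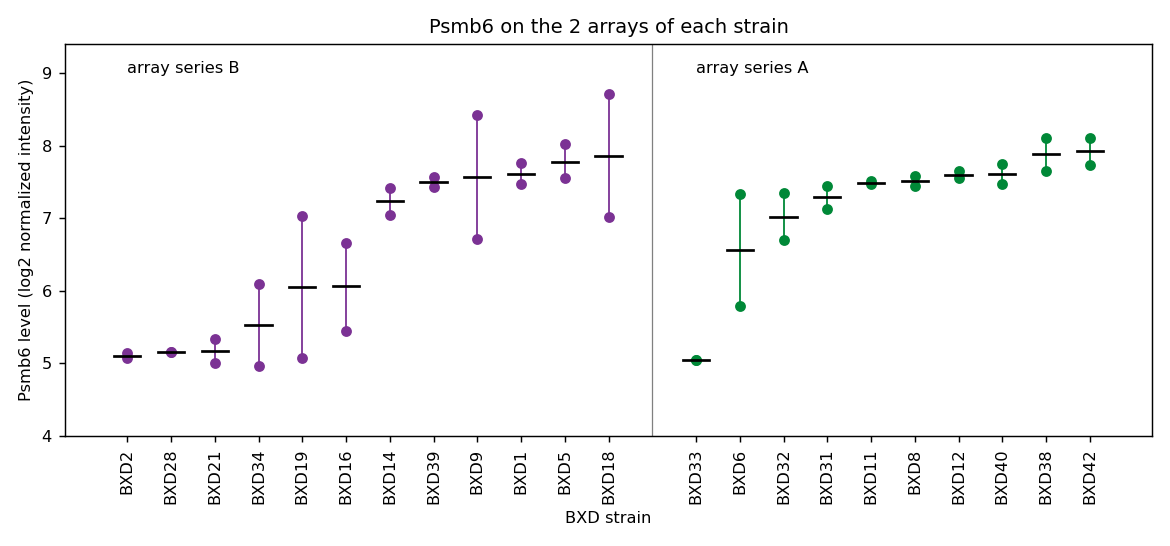
Psmb6 level (log2 normalized intensity, y axis) on each array of the 22 BXD strains, with array series B on the left and series A on the right. Points are the 2 arrays of a strain, joined by a line, and bars are their mean; BXD2, BXD28, BXD21 and BXD33 lie low on both arrays, between 5.01 and 5.33.

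Set against the average of the remaining strains in series A, Psmb6 fell in BXD33, with 5.05 ± 0.00 (SD, n = 2 arrays) in BXD33 and 7.43 in the others, a difference of -2.38 ± 0.43 (SE, limma, adjusted p = 0.00628). Without the first BXD33 array the adjusted p was 0.152, without the second it was 0.0336, and without BXD40 and BXD42 it was 0.00962. In series B no strain passed. The difference was -1.58 ± 0.42 in BXD2 (limma adjusted p = 0.0521), with 5.10 in BXD2 and 6.68 in the others. It was -1.53 ± 0.42 in BXD28 (limma adjusted p = 0.282) and -1.51 ± 0.42 in BXD21 (limma adjusted p = 0.158). Series B held 3 of the 4 low strains, which lowers the mean that each of them is set against. For Psmb6 the intraclass correlation, the share of variance within series that lies between strains, was 0.698 ± 0.125 (jackknife SE over 22 strains). Its strain means had an SD of 1.02 within series, against an SD of 0.61 between the 2 arrays of a strain. Psmb6 has a single probe set on the array, so no other probe set was at hand to set beside it. Probe sequences were not at hand either, so whether strain variants lie under its probes was not tested.

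By the median of the other members, 2 arrays of a strain were about as unlike as arrays of different strains. Over the 43 other tested member probe sets the median intraclass correlation was -0.0262, and over all 7453 tested probe sets it was 0.0386. The highest of the 43 were 0.447 for Psmc3 by 93734_i_at, 0.403 for Psmb10 and 0.340 for Psmd9, which did not pass the strain effect. A value at or below 0 means that 2 arrays of a strain were no more alike than arrays of different strains. The median SD of strain means was 0.27 for all 44 member probe sets, and the median SD between arrays of a strain was 0.36. Over all tested probe sets these medians were 0.26 and 0.36. Psme3 was the other member with a wide spread, with 0.77 for both SDs and an intraclass correlation of 0.333. The mean of 2 arrays holds part of their spread, so equal SDs do not mark a lack of strain effect.

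**Figure D2:**
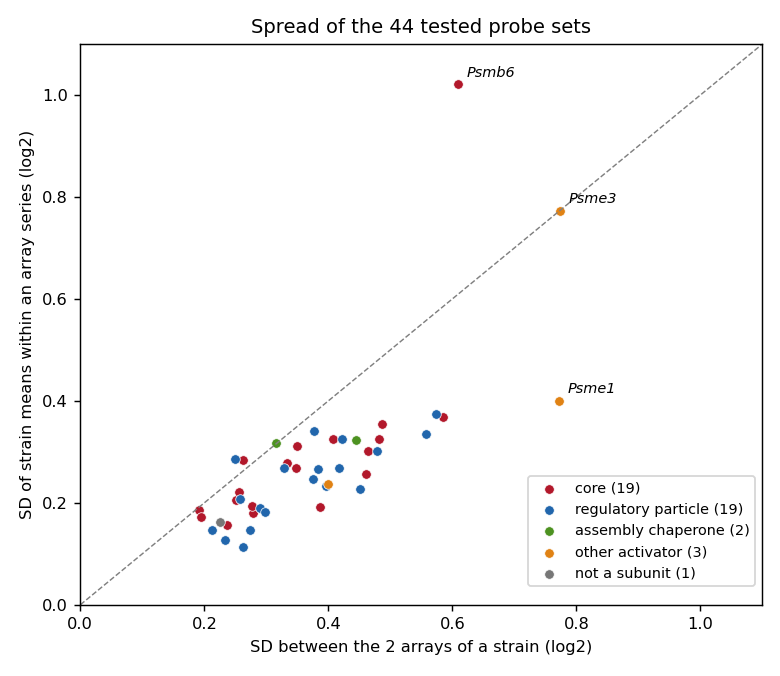
SD of the strain means within an array series (y axis, log2) against SD between the 2 arrays of a strain (x axis, log2) for the 44 tested member probe sets, coloured by particle, with the line of equal SDs dashed. Psmb6 stands farthest above the line at 1.02 against 0.61. Psmc3 by 93734_i_at, Psmb10 and Psmd9 lie just above it, and Psme3 lies on it at 0.77 for both. The line does not mark a lack of strain effect, as a mean of 2 arrays holds part of their spread.

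Both particles were compared through 15 tested genes each. The core had 1 gene of 15 past the strain effect, Psmb6, and the regulatory particle had 0 of 15. With an unadjusted p under 0.05 the core had 2 genes, Psmb6 and Psmb10, and the regulatory particle 0 by its brightest probe sets. By all probe sets, Psmc3 by 93734_i_at was 1 of 19 for the regulatory particle, against 2 of 19 for the core. The median intraclass correlation was -0.00964 for the core and -0.0928 for the regulatory particle, with jackknife SEs of 0.140 and 0.0963. The 2 medians thus differed by less than their errors, and no test was made of the difference. Intraclass correlation lay above 0 for 7 of 15 core genes and 3 of 15 regulatory particle genes, against 56.1% of all probe sets. By ring and subcomplex, the median over probe sets was 0.142 in the beta ring, -0.0912 in the alpha ring, -0.0504 among the base ATPases and -0.103 in the lid.

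Within the beta ring, Psmb10, the interferon-inducible counterpart of Psmb7, had its highest level in BXD2, with 9.53 and 9.57. Its lowest strain in series B was BXD14, with 8.36 and 8.84. In series A it was highest in BXD33, with 9.21 and 9.52, and lowest in BXD31, with 8.58 and 8.52. The arrays of BXD2 lay above every other array of series B. The difference from the rest of the series was 0.60 ± 0.20 in BXD2 (limma adjusted p = 0.14) and 0.59 in BXD33 (limma adjusted p = 0.379). Psmb5, which carries the chymotrypsin-like activity, was tested by 2 probe sets that disagreed. Over 22 strain means centred on their series the 2 had r = -0.331. By 160559_at its adjusted p for the strain effect was 0.586, the third smallest p among core probe sets. The remaining core members ranged up to an intraclass correlation of 0.314, for Psmb4 by 98557_f_at.

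In the regulatory particle, the probe sets with the smallest p were 93734_i_at of Psmc3, 94796_at of Psmd11 and 93735_f_at of Psmc3. Psmc3 is an ATPase of the base and Psmd11 a scaffold subunit of the lid. For Psmc3, 93734_i_at had 7.23 and 7.80 in BXD2 and 6.40 and 6.43 in BXD14, which were the highest and the lowest strain of series B. The 3 tested probe sets of Psmc3 had r between 0.496 and 0.661 with each other over strain means. Psmd11 by 94796_at had 9.19 and 8.48 in BXD2, and the other strains of series B averaged 9.83. That difference was -0.99 ± 0.27 (limma adjusted p = 0.062). In BXD6 it had 8.94 and 8.56, against an average of 9.65 in the other strains of series A (limma adjusted p = 0.102). The 3 probe sets of Psmd11 had r between 0.172 and 0.461 with each other. Without BXD40 and BXD42 the Psmd11 differences by 94796_at passed in both BXD2 and BXD6. With all arrays, the difference by 160305_at was -0.08 ± 0.21 in BXD2 and -0.003 ± 0.21 in BXD6. By 160304_r_at it was -0.66 ± 0.40 in BXD2 and -0.24 ± 0.40 in BXD6. None of these differences by the other probe sets passed (lowest limma adjusted p = 0.506). The result is thus that of 94796_at and was not shared by all probe sets of the gene.

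The chaperones of the base and the other activators followed. Psmd9, a chaperone of base assembly, has 97929_r_at as its only probe set. It had 9.89 and 9.89 in BXD6, and the other strains of series A averaged 9.01. The difference was 0.88 ± 0.24 (limma adjusted p = 0.0582). Only the second BXD38 array, at 9.96, lay above the BXD6 arrays. This difference passed under several of the other settings given in the closing section. Psme3, the nuclear activator also called PA28 gamma, had 4.93 and 5.52 in BXD9 against 6.84 on average in the rest of series B (-1.61, limma adjusted p = 0.47). In BXD42 it had 4.89 and 4.28, and in BXD11 4.81 and 4.87. Several strains had 1 high and 1 low array of Psme3, such as BXD16 with 6.72 and 4.07. Psme4, the activator PA200, had an adjusted p of 0.949 (limma F test) and Psme1 had 0.972. Psme1 arrays of a strain differed by an SD of 0.77, nearly 2 times the SD of its strain means (0.40).

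Across the 22 contrasts of a strain with the rest of its series, Psmb6 in BXD33 was the single call among 968 pairs of a member probe set and a strain. It is 1 lower and 0 higher call, while 0.273% of all 163966 pairs were called lower and 0.169% higher. At an unadjusted p under 0.05 the members had 5.89% of pairs, against 7.08% over all probe sets. In BXD33, 0.107% of all probe sets were called lower. Unadjusted differences were most frequent in BXD9, with 2 members higher and 5 lower of 44, and in BXD2, with 4 higher and 2 lower. BXD11 had 0 higher and 5 lower, and BXD21 and BXD6 also had 5 each over both directions. Over all probe sets, 2.37% were higher and 3.19% lower in BXD9, 6.44% higher and 6.53% lower in BXD2, and 3.17% higher and 5.61% lower in BXD11 at that unadjusted threshold. The 5 of 44 (11.4%) lower in BXD9 and in BXD11 thus exceeded the background share, and no test was made of the excess.

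**Figure D3:**
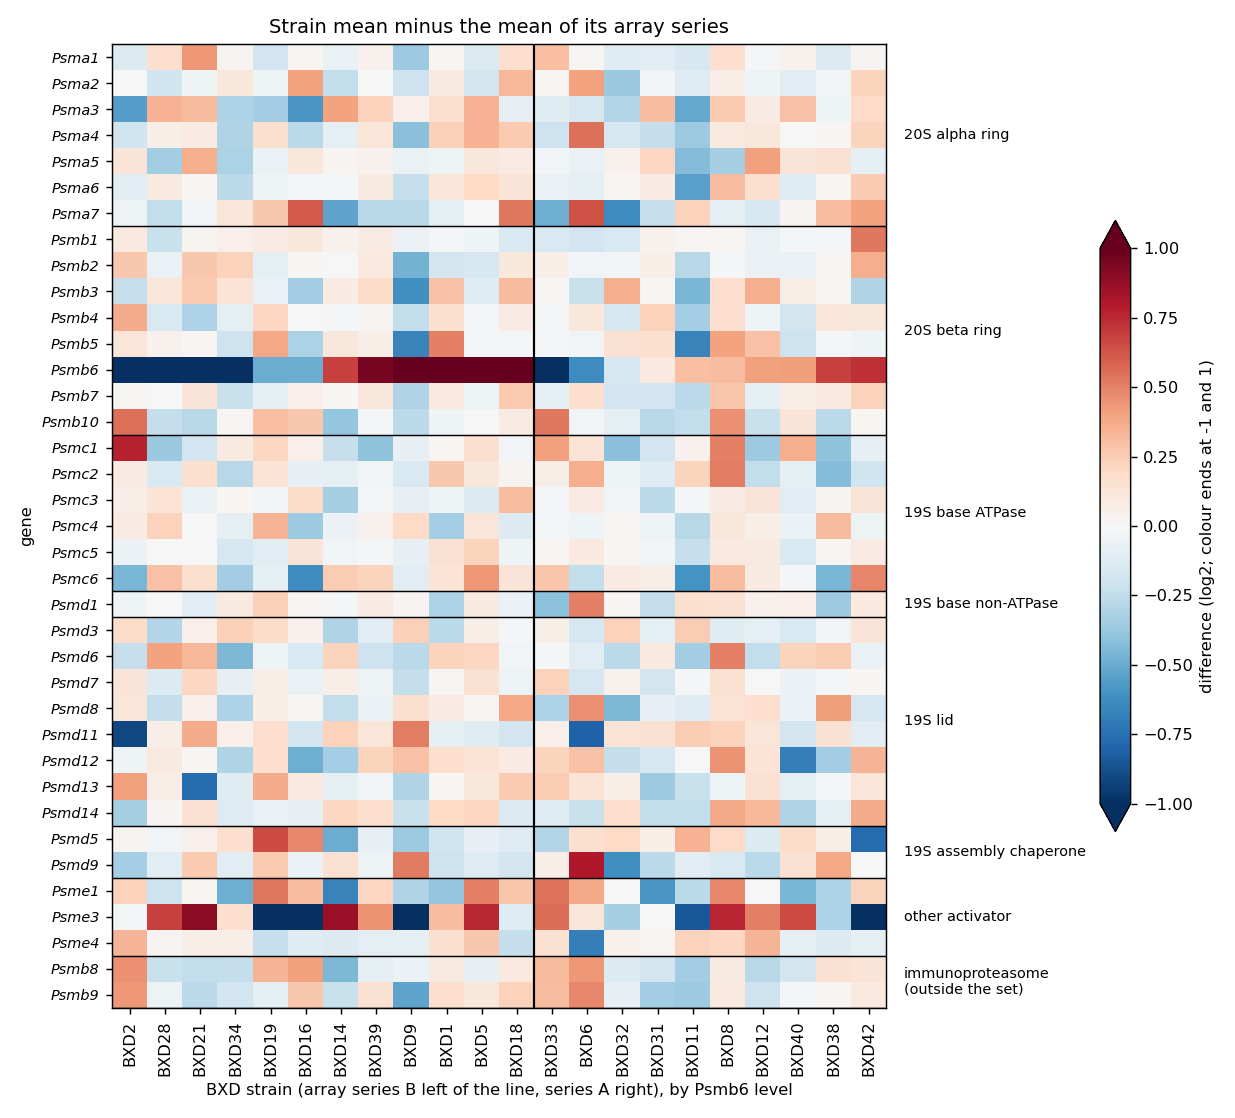
Strain mean minus the mean of its array series (colour, log2) for the brightest tested probe set of each proteasome gene (rows, by ring or subcomplex) in the 22 strains (columns, series B left of series A, ordered by Psmb6 level), with Psmb8 and Psmb9 at the bottom. The Psmb6 row runs from -2.15 in BXD33 to 1.31 in BXD18, beyond the ends of the colour scale, and most other rows stay pale.

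The mean centred level of the core without Psmb6 was lowest in BXD9 and BXD11, at -0.30 in each. By array it was -0.17 and -0.42 in BXD9, and -0.06 and -0.54 in BXD11, so the BXD11 value came mostly from its second array. In BXD11 the 5 members lower at an unadjusted p were all of the core: Psma5, Psma6, Psmb3, Psmb4 by 98557_f_at and Psmb5 by 101558_s_at. The other tested probe sets of these last genes were not lower to that degree: Psmb4 by 98556_at averaged 7.40 in BXD11 and 7.20 in the rest of series A, and Psmb5 by 160559_at averaged 8.42 in BXD11 and 8.44 in the rest. Psmb5 by 101558_s_at had 8.71 and 7.90 in BXD11, against an average of 9.05 in the rest of series A (-0.75 ± 0.33, limma adjusted p = 0.495). In BXD9 the core genes Psmb2, Psmb3 and Psmb5 by 101558_s_at were among the 5, while Psmb5 by 160559_at had 9.34 and 8.79 in BXD9, its highest strain in series B. Psmb3 had 7.93 and 8.20 in BXD9, against an average of 8.74 in the rest of series B (-0.67 ± 0.25, limma adjusted p = 0.654). Of the 15 core genes 13 lay below the rest of the series in BXD9 and 12 in BXD11, while 9 and 10 of the 15 regulatory particle genes did. None of these differences passed, and the counts are of genes measured on the same arrays. The share of all probe sets below the rest is not given beside them, so the counts are not read as particular to the core.

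The core minus the regulatory particle was -0.29 in BXD9 and -0.22 in BXD11. By array it was -0.26 and -0.32 in BXD9, and -0.12 and -0.32 in BXD11. The difference between the particles had an SD of 0.11 over strain means and 0.07 between arrays of a strain. Strain means of 2 arrays hold part of the array spread. For the core the SDs were 0.12 over strain means and 0.15 between arrays, and for the regulatory particle 0.08 and 0.14. Over both series together, means of 7 lists of blood cell markers had r between -0.396 and 0.122 with core minus regulatory particle. For 3 of the 7 lists, values by series were as follows. The mean of 4 tested T and NK cell markers of a list of 9 had r = -0.391 with core minus regulatory particle in the 12 strains of series B and 0.852 in the 10 of series A. The T cell gene Cd3d was at the floor on 35 of 44 arrays. The 2 tested mast cell, basophil and eosinophil markers of 5 had r = -0.307 in series B and 0.851 in series A, with Fcer1a at the floor on 33 arrays. The 3 tested megakaryocyte markers of 6 had r = -0.465 in series B and -0.314 in series A. Their part in the result was not tested.

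BXD8 had the highest mean over all subunit genes, at 0.20, with 34 of 44 member probe sets above the rest of series A. Its core mean was 0.14 and its regulatory particle mean 0.23. By array, the mean over all subunits in BXD8 was 0.31 and 0.10, so both arrays lay above the series mean. In BXD5, 13 of 15 regulatory particle genes and 5 of 15 core genes lay above the rest of series B. The share of all probe sets above the rest is not given here, so these counts are not read as particular to the proteasome. The strain means of all subunits had an SD of 0.09, and the SD between arrays of a strain was 0.15.

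Core and regulatory particle means moved together over the 22 strain means, with r = 0.474 (rho = 0.632). Within series r was 0.305 in series B and 0.602 in series A. Without BXD9 and BXD11, the 2 strains farthest from the median of the core, r was 0.594, and without BXD40 and BXD42 it was 0.463. The differences between the 2 arrays of a strain, which carry no strain effect, had r = 0.854 between the particles. These points share arrays and their normalization, so the correlations describe the arrays as well as the cells. Between single genes the median r was 0.261 over 91 pairs of core genes without Psmb6, 0.114 over 105 pairs of the regulatory particle and 0.0978 over 210 pairs across the particles. Over all pairs of tested genes the median lay near 0, with 50.1% of pairs positive, against 79.1% within the core, 68.6% within the regulatory particle and 63.3% between them.

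**Figure D4:**
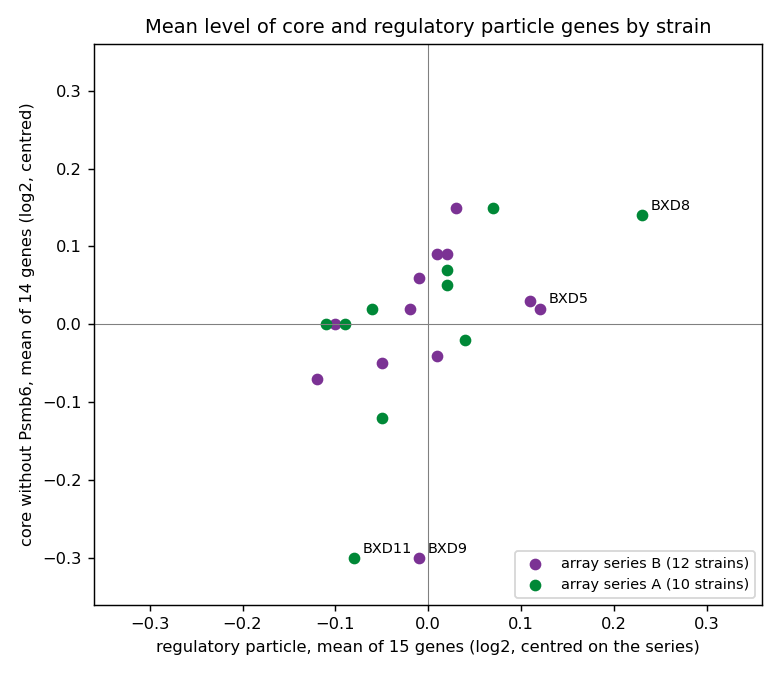
Mean centred level of 14 core genes without Psmb6 (y axis, log2) against that of 15 regulatory particle genes (x axis, log2) in the 22 strains, coloured by array series. BXD9 and BXD11 lie lowest for the core at -0.30, and BXD8 lies farthest right at 0.23.

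Several of the closest pairs crossed the particles. Psmb10 and the ATPase Psmc1 had r = 0.814, Psma3 and the ATPase Psmc6 had 0.783, and Psma6 and the ATPase Psmc5 had 0.753. Within the alpha ring, Psma2 and Psma7 had r = 0.786. Within the beta ring, Psmb3 and Psmb5 had r = 0.690. The most negative pairs were Psmd9 with Psme4 at -0.684, Psmd3 with Psmd6 at -0.656 and Psma3 with Psmd3 at -0.638. Intraclass correlations were -0.0443 for Psma3, -0.337 for Psma6, -0.450 for Psmc5 and -0.162 for Psmc6. Whether the r of these genes describes strains or arrays was not tested. Psma3, Psmb4, Psmb7, Psmc3 and Psmd12 were measured by probe sets whose identifiers carry _f, and Psmb5 by one with _s, which mark probes shared with other transcripts. The values of these genes are thus less certain.

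Psmb6 levels bore little relation to those of the other subunits. Its r over 22 strain means had a median of 0.068 with the 14 other core genes, running from -0.430 with Psma1 to 0.351 with Psma3. With the 15 regulatory particle genes the median was 0.064. With the mean of the other core genes r was 0.0466 (rho = 0.268), and without BXD9 and BXD11 it was 0.385. Without BXD40 and BXD42 it was -0.00816. BXD9 and BXD11 combined the lowest core means with Psmb6 levels of 7.57 and 7.49. Among the catalytic genes, Psmb6 had r = 0.165 with Psmb7 and -0.0328 with Psmb5, while Psmb5 and Psmb7 had 0.409. The low Psmb6 of BXD33, BXD2, BXD28 and BXD21 stood beside core means of -0.02, 0.02, -0.04 and 0.09. Means of 7 lists of blood cell markers had r between -0.340 and 0.0127 with Psmb6, and the Gapdh 3' minus 5' signal, a measure of RNA degradation, had -0.0189. The part of these in the Psmb6 result was not tested.

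Among 5586 other genes, those most alike Psmb6 over the 22 centred strain means were Tbc1d15, a GTPase-activating protein for Rab7 (r = 0.693), Siva1, a binding partner of the receptor CD27 (0.664), and Agap2, an ARF GTPase-activating protein (0.649). Angptl4, a secreted inhibitor of lipoprotein lipase, had r = 0.632 and Slc34a1, a phosphate transporter, 0.628. Tbc1d15 passed the strain effect and the other 4 did not. The genes most alike the mean of all tested subunit genes were Prpf38a, a splicing factor (r = 0.864), Chtop, of RNA export (0.844), Selenof, a selenoprotein (0.812), Skap2, an adaptor protein (0.795), and Vbp1, a subunit of prefoldin (0.789). None of these 5 passed the strain effect. The closest tested neighbours of Psmb6 on chromosome 11 were Alox12e (r = 0.314) and Pld2 (0.424), and of 5 neighbours on each side none passed.

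The strain means of the immunoproteasome genes ran together. Psmb8 and Psmb9 had r = 0.757, Psmb8 and Psmb10 had 0.718, and Psmb9 and Psmb10 had 0.666 over 22 strain means. Psme1 had r = 0.662 with Psmb8, 0.617 with Psmb9 and 0.674 with Psmb10. Its intraclass correlation was -0.300, against 0.403 for Psmb10 and a median of 0.386 for Psmb8 and Psmb9. Strain means share arrays, and whether these r values describe strains or arrays was not tested. All 6 pairs were positive in both series, between 0.516 and 0.901 in series B and between 0.495 and 0.932 in series A. Psmb6 had r = -0.199 with Psmb9, the subunit that takes its place, and Psmb7 had 0.261 with Psmb10. None of the 4 passed the strain effect, Psmb8 coming nearest (limma adjusted p = 0.221). In BXD5, Psmb10 differed from the rest of series B by -0.00 ± 0.20 and Psme1 by 0.54 ± 0.53 (limma adjusted p = 0.999 for each).

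Other genes of the pathway gave no call. Of the partners of the proteasome, among them the chaperones Pomp and Psmg1 and the deubiquitinases Uchl5 and Usp14, 0 of 11 tested genes passed the strain effect and 0 had an unadjusted p under 0.05. Of the ubiquitin and shuttling genes 0 of 15 passed, and 1, the ubiquitin ligase Ube4b, had an unadjusted p under 0.05 (limma adjusted p = 0.271). A dimmer probe set of Vcp, the ATPase that extracts ubiquitinated proteins, did pass (97665_i_at, limma adjusted p = 0.00255), but had r = -0.017 with the brightest one. Of the regulators of proteasome genes 0 of 9 passed. Nfe2l1 and Nfe2l2 had limma adjusted p = 0.925 and 0.955. Uchl5 had r = 0.603 with Psmb6, Akirin2, a factor in nuclear import of proteasomes, 0.525, and Nfe2l1 -0.435. The lists held 11, 15 and 9 tested genes, and r of the others with Psmb6 is not given here. A link of these genes to Psmb6 was not tested.

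Antioxidant response elements are the site through which Nfe2l1 and Nfe2l2 bind DNA, so their core, TGACNNNGC, was searched on both strands in promoter windows from 250 bases before to 50 after the start of the gene (RefSeq, GRCm38.p6). Of the 38 genes, 32 had a window, and Psmb1, Psmb2, Psmb7, Psmc3, Psmd3 and Psmd7 did not. The motif stood in 6 of the 32 genes (18.8%), against 14% of all 27025 gene symbols with a window. These were 2 of 12 core genes, Psmb5 and Psmb6, 2 of 14 regulatory particle genes, Psmc6 and Psmd12, the chaperone Psmd9 and the activator Psme4. The motif CCAAT, searched in the same way, stood in 12 of the 32 (37.5%) and in 41.1% of all symbols. It was absent from the letters of the Psmb6 window. These matches are letters in a window and not measured binding.

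The window of Psmb6 is shown whole because Psmb6 is the member that differed between strains, at chr11:70525107-70525406 on the + strand. The motif, in capitals, begins 9 bases before the start of the gene. The reference sequence is that of C57BL/6, and DBA/2 bases were not analysed here.
Psmb6: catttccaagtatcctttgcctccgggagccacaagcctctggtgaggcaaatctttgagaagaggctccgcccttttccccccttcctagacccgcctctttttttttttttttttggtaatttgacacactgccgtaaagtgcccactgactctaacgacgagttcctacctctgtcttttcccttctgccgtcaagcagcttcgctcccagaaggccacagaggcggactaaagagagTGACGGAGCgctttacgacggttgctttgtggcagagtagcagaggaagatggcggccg
The sites of the other core gene and of 2 genes named above are given with up to 10 bases on each side, to show how the letters between the fixed bases differ. All read 5′ to 3′ in the direction of the gene, and in Psmc6 the motif lies on the opposite strand.
Psmb5 (chr14:54617946-54618245, - strand): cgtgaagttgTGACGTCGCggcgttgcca
Psmd9 (chr5:123227940-123228239, + strand): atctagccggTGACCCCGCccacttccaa
Psmc6 (chr14:45329574-45329873, + strand): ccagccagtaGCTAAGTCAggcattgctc

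The last comparison set array series B against array series A on the 22 strain means. Of the 44 member probe sets 14 differed (limma adjusted p under 0.05), 6 higher and 8 lower in series B. That is 31.8% of the members, against 21.8% of all probe sets, with 10.8% of all higher and 11.1% lower. The core had 2 higher and 3 lower of 19, and the regulatory particle 3 higher and 4 lower of 19. Without BXD40 and BXD42 there were 13. The series hold different strains, so array series and strain set cannot be told apart.

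Psmc5, an ATPase of the base, averaged 8.55 ± 0.12 (SD, n = 12 strains) in series B and 8.14 ± 0.11 (n = 10) in series A. Its strain means did not overlap between the series, which held for 0.711% of all probe sets (difference 0.41 ± 0.06, limma adjusted p = 9.09e-05). Psmc5 had the lowest intraclass correlation of all members within series, at -0.450. Psmd8, of the lid, averaged 8.03 ± 0.20 in series B and 8.57 ± 0.30 in series A (limma adjusted p = 0.00101). Psmb2, of the beta ring, averaged 7.89 ± 0.22 in series B and 8.32 ± 0.16 in series A (limma adjusted p = 0.00121). Psmd6, of the lid, averaged 8.08 ± 0.27 and 7.58 ± 0.27 (series B, then series A, limma adjusted p = 0.00285). Psme3 had the widest difference, with 6.71 ± 0.86 in series B and 5.69 ± 0.64 in series A (1.02 ± 0.30, limma adjusted p = 0.0193). Psmb6 averaged 6.55 ± 1.14 in series B and 7.19 ± 0.85 in series A (-0.64 ± 0.40, limma adjusted p = 0.264). For Psmb4, 98556_at differed (-0.51, limma adjusted p = 0.00954) while 98557_f_at had -0.06 ± 0.09, and the 2 had r = -0.338 over strains.

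**Figure D5:**
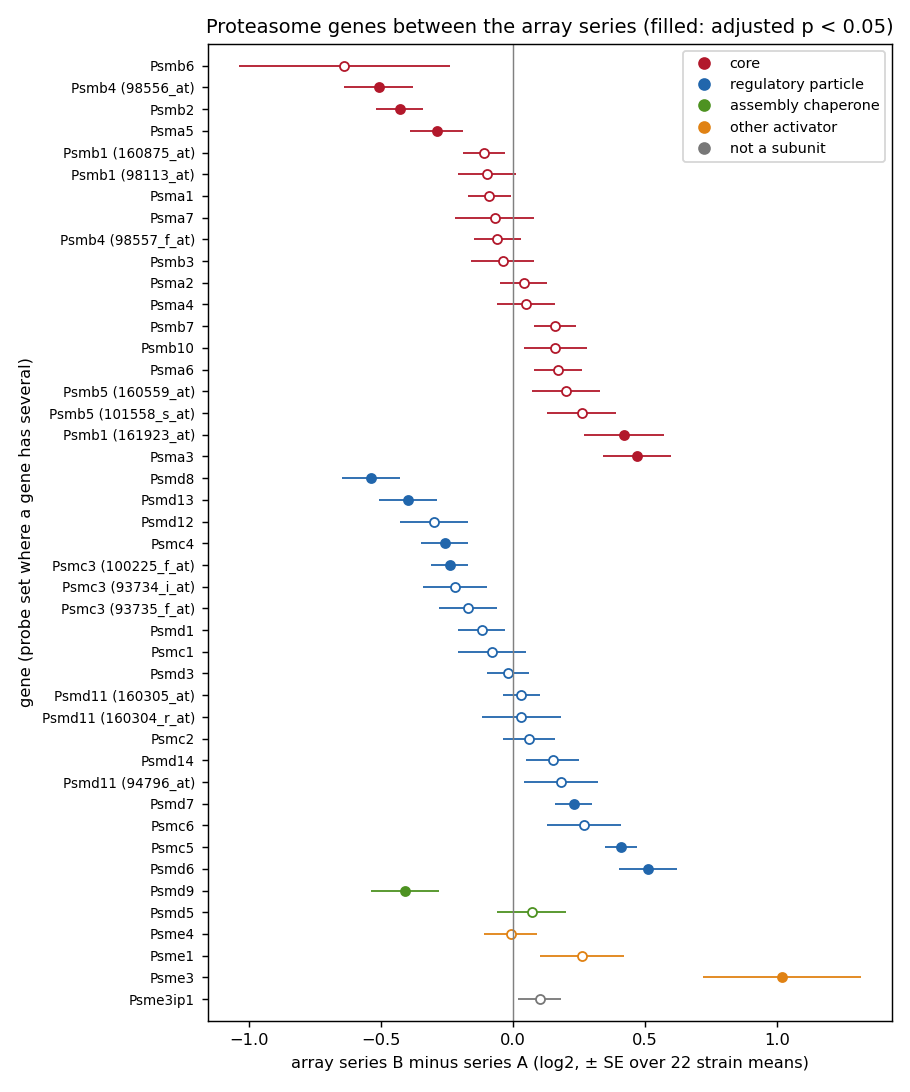
Difference between array series B and array series A (x axis, log2, with SE over 22 strain means) for the 44 tested member probe sets (rows, by particle). Filled points passed at an adjusted p under 0.05, 6 above 0 and 8 below 0, and the widest of them is Psme3 at 1.02.

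The filter on dim probe sets left out 7 member probe sets. Psmd2 and Psmd4, of the base, and Psmd10, a base chaperone, had their only probe set among them, as did Psmc3ip. The others were further probe sets of Psmb4, Psmc5 and Psme1. Their mean levels ran from 4.02 to 5.85, with Psmc3ip just below the filter, and the dimmest tested member was 161923_at of Psmb1 at 6.03.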

How the data were processed

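The authors deposited a table of intensity values on a linear scale, 12488 probe sets on 44 arrays, each array scaled to a 2% trimmed mean near 200.1 (found from the values). The software that summarised the probes is not given in the sources used here. Intensities under 16 were set to 16, log2 was taken and arrays were quantile normalized, since array medians ranged over 0.275. The 66 control probe sets and those with a mean under the 40th percentile (6.00) were left out, which left 7453. Strain effects were tested with limma 3.58.1 in R 4.3.3, an F test over 20 contrasts within array series with 22 residual degrees of freedom, and each strain was set against the other strains of its series. Array series were compared with limma on strain means. P-values were adjusted by Benjamini-Hochberg over all tested probe sets. The number of arrays limits the precision. Correlations between genes are over 22 strain means centred on their series and carry no test. Scripts were tested on simulated data. Members, lists, tests and alternatives were chosen with earlier results of these data known. Genes were named where they passed a test, were among the 3 smallest p of the core, the regulatory particle or the other activators, or were among the 5 genes most alike Psmb6 or the subunit mean. Further genes were named after their values were seen: the members at the ends of a range, those of BXD9 and BXD11, Psmd9, the closest pairs and the array series. Promoter windows came from RefSeq tables through Python 3.11.15.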

Additional observations from a re-analysis of the deposited data

How the results depend on the processing

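Psmb6 passed the strain effect under each of the 77 alternatives in which it was tested, with adjusted p between 0.00019 and 0.0363, the highest with series B alone. A filter at the 60th percentile left it out, so 0 members passed there. Modelling no array series gave 2 members, the second being Psme3 (adjusted p = 0.0413). The count over all probe sets was 209, and 483 without the array series in the model and 52 with series A alone. It was 171 to 247 without 1 array, where the member count was always 1, and 171 to 235 without 1 strain. Psmb6 in BXD33 had adjusted p from 0.00193 to 0.152 without 1 array, and up to 0.035 otherwise. The strain contrasts gave few further calls. Member calls in the higher direction were 1 with no filter on dim probe sets (Psmb4 in BXD34), and 1 (Psmd9 in BXD6) with the filter at the 60th percentile, a variance trend with robust prior, no array series in the model, without BXD40 and BXD42, and with the Gapdh covariate. Lower calls were 3 under the variance trend, 3 with no series in the model, 3 without BXD40 and BXD42 and 4 with the Gapdh covariate. Calls other than Psmb6 were 1, 2, 2, 1, 3 and 3 under these settings in that order. Without 1 array, higher calls were 0 to 1, lower calls 0 to 4 and calls other than Psmb6 0 to 3. Psmb6 in BXD2 passed under 13 alternatives, with adjusted p as low as 0.0152. Psmb10 in BXD5 changed sign around 0 with values as deposited (adjusted p = 0.999), with no series in the model (0.963) and without some single arrays (0.997 to 1). Psme1 in BXD5 changed sign without the first BXD5 array, with 0.985 to 1 over single arrays. The series comparison gave 9 members with the filter at the 60th percentile. The cause of these changes was not tested. With values as deposited, r of core with regulatory particle was 0.503. The settings without BXD40 and BXD42 for the core and regulatory particle values were chosen after seeing the data, and moved each by less than its jackknife error. No paired analysis was possible because replicate numbers follow accession order and pair no arrays. A block for scan date was not run, as the scanner files used here hold no dates.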
